A study of Mus musculus with 6 samples.

Results

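The genes described here are 10 genes of iron handling: the iron hormone genes Hamp and Hamp2, the carriers Lcn2 and Trf, the receptors Tfrc and Tfr2, the exporter Slc40a1, the ferritin subunits Fth1 and Ftl1, and the ferroxidase Cp. They were chosen by gene symbol from the 54532 Ensembl genes of the tables, and all 10 were found under 1 identifier each. Liver RNA came from 3 mice whose fathers had received nicotine (paternal nicotine, F1-N) and from 3 mice whose fathers had received saline (paternal saline, F1-C). All 6 were adult C57BL/6J males of about 8 weeks, and the labels name no treatment of these offspring themselves. The labels do not say how many fathers or litters they came from, and the p-values therefore describe only how these 6 animals varied. The comparison asked which transcripts differed between the livers of the offspring of nicotine-treated and of saline-treated fathers.

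Values are RPKM, that is reads scaled to the length of the gene and to the total of the library. For 9 of the 10 genes, all but Fth1, the length behind the deposited value was that of the exons of all annotated transcripts added together. A gene with many transcripts therefore reads low against one with few, while the ratio of a gene's own levels between groups is not touched. A value made low in this way can fall under the filter on low values. On the log2(RPKM + 1) scale used below, it also makes the fold change smaller. The totals behind them ranged from 62072258 to 70089315 reads in paternal nicotine and from 61837267 to 66928579 reads in paternal saline. Hepatocyte markers (10 genes) summed to between 19156 and 20362 RPKM in paternal nicotine and between 33618 and 40178 RPKM in paternal saline, a sum carried mainly by Alb. Of these 10 genes 3 fell (Alb, Apoa2 and Ass1), 0 rose and 7 did not pass the limma test given below, with 4 log2 fold changes above 0. Over all tested genes 5.39% fell and 3.89% rose. Mitochondrial transcripts (13 genes) summed to 49715 to 56884 RPKM in paternal nicotine and to 66294 to 68565 RPKM in paternal saline. Of these 13 genes 1 fell (mt-Co1), 0 rose and 12 did not pass the same test, with 0 log2 fold changes above 0. Paternal nicotine replicate 2 stood apart by 12 genes of pancreatic acinar cells, which summed to 4158 RPKM there and to at most 0.717 RPKM in the other 5 libraries. Kupffer cell and macrophage markers (13 genes) summed to 436, 788 and 1377 RPKM in paternal nicotine replicates 1, 2 and 3 and to 438, 498 and 863 RPKM in paternal saline replicates 1, 2 and 3. In bulk tissue, such sums cannot tell apart fewer cells of a type, less RNA per cell and lower levels of the listed genes alone.

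Hepcidin, the peptide encoded by Hamp, is made by hepatocytes and binds ferroportin, the iron exporter encoded by Slc40a1, which is then taken into the cell and degraded. Its transcription is known to rise with iron, through BMP ligands and SMAD proteins, and with inflammation, through IL-6 and STAT3. Transferrin carries iron in plasma, its receptors Tfrc and Tfr2 take it up or sense it, and ferritin, built of heavy and light subunits, stores it. In cells short of iron, iron regulatory proteins (IRP) bind hairpins in certain transcripts: in a 5′ UTR they block translation, and in the 3′ UTR of Tfrc they stabilise the transcript.

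The promoter windows of Hamp and Hamp2 are shown because these neighbouring paralogs on chromosome 7 moved in opposite directions. The sequences are from RefSeq (GRCm38.p6), from 250 bases before to 50 bases after each gene's start on the minus strand, at chr7:30943980-30944279 for Hamp and chr7:30924132-30924431 for Hamp2. Capitals mark matches to 2 motifs searched on both strands: GGCGCC, the core of the BMP response element, and TTCNNNGAA, the STAT motif. The 2 motifs did not overlap in these windows.
Hamp: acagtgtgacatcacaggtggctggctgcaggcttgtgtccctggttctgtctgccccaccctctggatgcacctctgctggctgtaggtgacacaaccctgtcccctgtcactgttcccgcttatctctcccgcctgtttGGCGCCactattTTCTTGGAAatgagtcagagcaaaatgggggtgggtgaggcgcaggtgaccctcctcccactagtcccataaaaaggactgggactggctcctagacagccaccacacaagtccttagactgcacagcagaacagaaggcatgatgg
Hamp2: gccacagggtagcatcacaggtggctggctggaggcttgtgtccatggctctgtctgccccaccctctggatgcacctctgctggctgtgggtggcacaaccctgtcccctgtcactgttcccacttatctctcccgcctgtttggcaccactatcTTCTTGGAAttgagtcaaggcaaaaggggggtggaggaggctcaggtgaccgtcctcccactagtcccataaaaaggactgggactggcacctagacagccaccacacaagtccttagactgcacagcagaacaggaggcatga
Over 297 aligned bases the windows were identical at 276 and differed at 21, without gaps. The STAT motif was found in both windows. GGCGCC was found in the Hamp window only, and the base that differs inside it is G145A, counted from 1 at the 5′ end of the Hamp window, with the Hamp base first. Of 32851 promoter windows of the same length, 11.9% held GGCGCC and 8.30% held the STAT motif. RefSeq windows were matched for 8 of the 10 genes. Of the 13 windows of these 8 genes, 1 other held a match, a GGCGCC in a window of Tfrc.

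The hairpins bound by iron regulatory proteins are shown because 4 of the 10 genes carry them and are known to be regulated through them. They were searched in the GENCODE M21 transcripts (GRCm38) as a C, 5 bases, the loop CAGTGN and 5 bases that pair with the first 5, G with T included. Capitals mark the 6 bases of the loop, and each stretch is given with its position.
Fth1, 5′ UTR, chr19:9982732-9982761, plus strand: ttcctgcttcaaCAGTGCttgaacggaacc
Ftl1, 5′ UTR, chr7:45459778-45459807, minus strand: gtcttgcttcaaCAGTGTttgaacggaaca
Slc40a1, 5′ UTR, chr1:45925464-45925493, minus strand: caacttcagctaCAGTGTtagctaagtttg
Tfrc, 3′ UTR, chr16:32631219-32631248, plus strand: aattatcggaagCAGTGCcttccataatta
Tfrc, 3′ UTR, chr16:32631598-32631627, plus strand: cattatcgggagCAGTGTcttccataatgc
Tfrc, 3′ UTR, chr16:32631663-32631692, plus strand: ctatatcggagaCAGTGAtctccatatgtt
Tfrc, 3′ UTR, chr16:32631710-32631739, plus strand: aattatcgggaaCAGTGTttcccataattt
Of 21877 protein-coding genes, 294 (1.34%) held such a match. None was found by this search in Hamp, Hamp2, Lcn2, Trf, Tfr2 or Cp, nor in Slc11a2, which was searched as well. The search allows no mismatch or bulge in the 5 pairs, so it misses hairpins of another form.

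In livers of the paternal nicotine group, Lcn2, Hamp, Cp and Trf rose and Hamp2 fell, while the transferrin receptors, the iron exporter and both ferritin subunits did not pass the test. All 10 genes averaged 1 RPKM or more across the libraries, the filter on low values. They were tested among 8773 genes by limma on log2(RPKM + 1), with Benjamini-Hochberg adjustment over all of them and a threshold of 0.05. Of the 10 genes, 4 were higher, against 3.89% of all tested genes, and 1 was lower, against 5.39%. Passing in either direction were 5 of the 10, against 9.28% of all tested genes. The groups did not overlap for 6 of the 10, the sixth being Tfrc, against 33.6% of all tested genes. The median fold change of all tested genes was -0.02 on the log2 scale. When paternal nicotine replicate 2, which held the acinar genes, was left out, Lcn2, Hamp2 and Cp passed and Hamp and Trf did not.

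**Figure D1:**
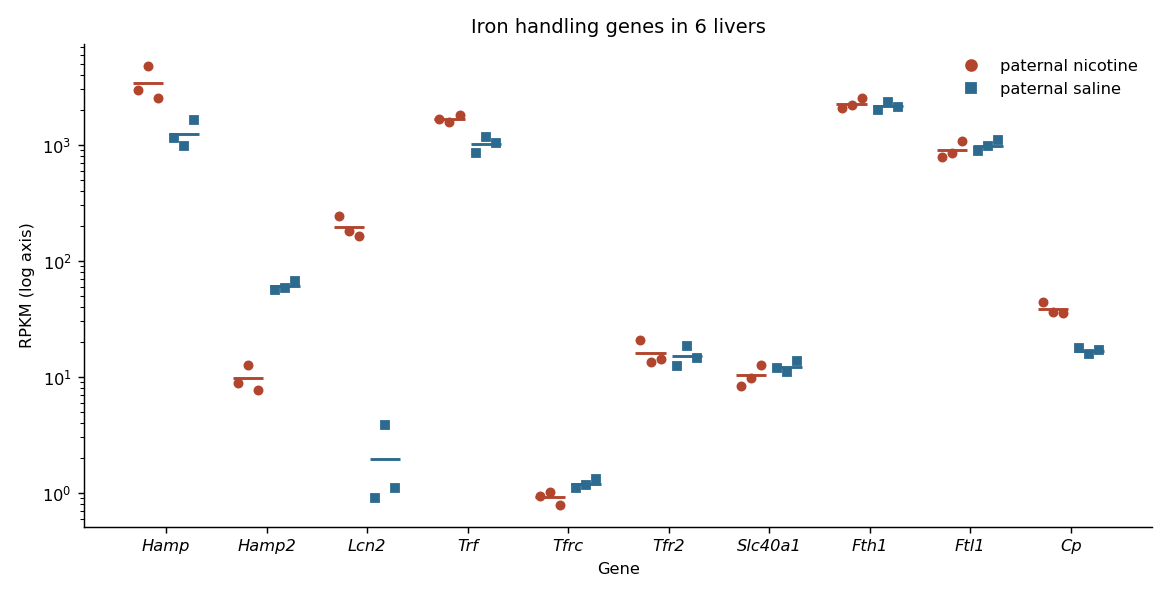
RPKM of the 10 iron handling genes in each of 6 livers on a log axis, with paternal nicotine (circles) left of paternal saline (squares), 3 livers per group, and a line at each group's mean. The groups are far apart for Lcn2 and Hamp2, apart for Hamp, Trf and Cp, and narrowly apart for Tfrc, which did not pass the test. They overlap for Tfr2, Slc40a1, Fth1 and Ftl1.

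Hamp (ENSMUSG00000050440, chromosome 7, 30942368 to 30944032, minus strand) was at 2992, 4789 and 2531 RPKM in the paternal nicotine livers, against 1147, 968 and 1626 RPKM in the paternal saline livers. Every paternal nicotine liver lay above every paternal saline liver, and paternal nicotine replicate 2 was the highest. The means were 3437 ± 1193 RPKM in paternal nicotine and 1247 ± 340.3 RPKM in paternal saline (SD, n = 3 each), a ratio of 2.76. The log2 fold change was 1.44 (SE 0.30, limma adjusted p = 0.0396). Without paternal nicotine replicate 2 the log2 fold change was 1.18 (limma adjusted p = 0.0857). Leaving out each library in turn gave fold changes of 1.18 to 1.65, and 5 of these 6 fits did not pass (limma adjusted p 0.0557 to 0.126), while the fit without paternal nicotine replicate 3 did (0.0486).

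Hamp2 (ENSMUSG00000056978, chromosome 7, 30922372 to 30924681, minus strand) is a hepcidin paralog found in mice. Its product is not known to share the iron-lowering action of hepcidin. Hamp2 was at 8.76, 12.7 and 7.65 RPKM in the paternal nicotine livers, against 56.6, 58.2 and 67.3 RPKM in the paternal saline livers. The groups were far apart, and the livers of each group lay close together. The mean was 9.70 ± 2.64 RPKM in paternal nicotine and 60.7 ± 5.77 RPKM in paternal saline (SD, n = 3 each), 6.26-fold lower in paternal nicotine. The log2 fold change was -2.55 (SE 0.18, limma adjusted p = 0.00324). It ranked as the 10th largest fall of the 8773 tested genes and passed under every alternative run.

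Hamp2 made up 0.292%, 0.264% and 0.301% of the Hamp and Hamp2 RPKM of a liver in paternal nicotine, against 4.70%, 5.68% and 3.97% in paternal saline. Scaled instead to the bases covered by any of a gene's transcripts, the share was 0.639%, 0.578% and 0.660% in paternal nicotine, against 9.78%, 11.7% and 8.34% in paternal saline, and the groups lay far apart on either scale. The coding sequences of both genes are 93.6% identical over 249 aligned bases and share runs of up to 80 identical bases. The transcripts share runs of up to 87 identical bases. How the authors placed reads that match both genes is not known here, so the division of reads between Hamp and Hamp2 is uncertain. Hamp2 also shares 89 exonic bases with Gm44662, a non-coding gene on the opposite strand that was at 0 to 0.117 RPKM in paternal nicotine and at 0 to 1.37 RPKM in paternal saline. The sum of Hamp and Hamp2 was 3447 ± 1196 RPKM in paternal nicotine and 1307 ± 345.6 RPKM in paternal saline (SD, n = 3 each). Put in place of both rows, the sum had 1.38 as its log2 fold change (SE 0.29, limma adjusted p = 0.0432), and it did not pass without any 1 of the 6 libraries (limma adjusted p 0.0512 to 0.132). An exact two-sided permutation test of the sum over the 6 livers gave p = 0.1, the smallest that 3 against 3 allow.

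**Figure D2:**
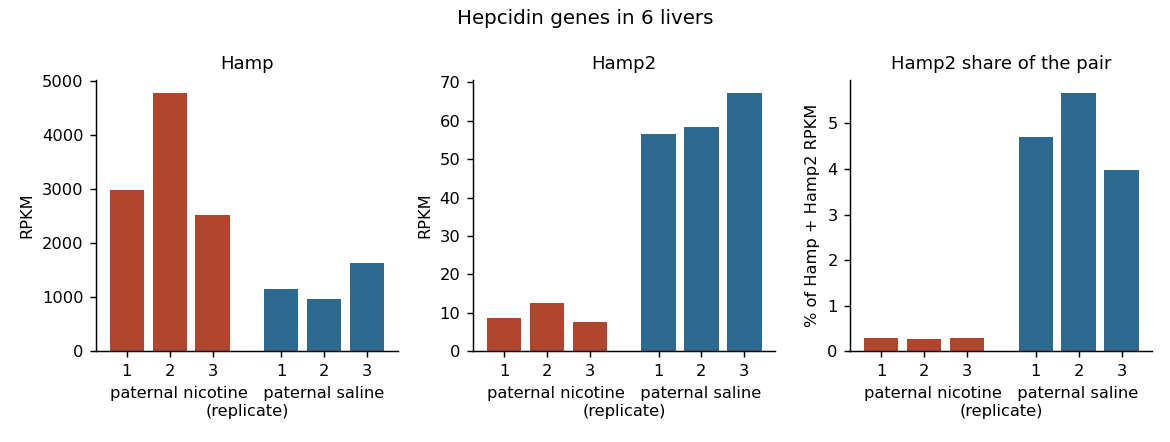
Bars give the RPKM of Hamp and of Hamp2 and the percentage of their summed RPKM that is Hamp2, in the 3 paternal nicotine livers (left) and the 3 paternal saline livers (right). Hamp is higher in all 3 paternal nicotine livers, Hamp2 is lower in all 3, and the share of Hamp2 is at most 0.301% in paternal nicotine and at least 3.97% in paternal saline.

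Lcn2 (ENSMUSG00000026822, chromosome 2, 32384633 to 32388252, minus strand) encodes lipocalin 2, which binds bacterial iron carriers and is secreted by the inflamed liver and by neutrophils. Lcn2 was at 243, 181 and 165 RPKM in the paternal nicotine livers, against 0.906, 3.85 and 1.09 RPKM in the paternal saline livers. No liver of either group came near the other group, and paternal saline replicate 2 was the highest of its group. The mean was 196 ± 41.2 RPKM in paternal nicotine and 1.95 ± 1.65 RPKM in paternal saline (SD, n = 3 each), a ratio of 101. On the log2 scale the difference was 6.18 (SE 0.39, limma adjusted p = 0.00233), the second largest rise of all tested genes. Behind these values lay 83863, 62374 and 64312 reads in paternal nicotine and 311, 1431 and 389 reads in paternal saline.

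A list of 15 neutrophil genes without Lcn2 summed to 33.5, 93.6 and 69.8 RPKM in paternal nicotine, against 6.61, 8.96 and 6.89 RPKM in paternal saline. Of these, 5 could be tested: 3 rose, 0 fell and 2 did not pass, beside 3.89% higher and 5.39% lower among all tested genes. For 8 of the 15 genes every paternal nicotine liver lay above every paternal saline liver, and for the other 7 the groups overlapped. Of all tested genes 33.6% did not overlap, with both directions counted. Elane, Mmp8, Cxcr2 and Ly6g were below the filter on low values, so that share does not cover such genes. The 8 were S100a8, Retnlg, Prtn3, Mmp9, Elane, Mmp8, Cxcr2 and Ly6g. S100a8 was at 18.3 to 37.1 RPKM in paternal nicotine and at 1.72 to 2.94 RPKM in paternal saline. The granule gene Prtn3 was at 4.99 to 6.98 RPKM in paternal nicotine and at 0.128 to 1.25 RPKM in paternal saline, and the granule gene Elane at 0.900 to 2.10 RPKM in paternal nicotine and 0.380 to 0.501 RPKM in paternal saline. Ly6g was at 0.139 to 0.694 RPKM in paternal nicotine and at 0 in paternal saline. Among the 7 that overlapped, the granule genes Mpo and Ltf were at or below 0.0689 RPKM in all 6 livers, and Camp was at 0 in 5 livers and at 0.602 RPKM in paternal nicotine replicate 3. The others of the 7 were S100a9, Ngp, Csf3r and Ctsg. S100a9 was at 1.64, 35.2 and 7.69 RPKM in paternal nicotine, against 1.08, 2.51 and 0 RPKM in paternal saline. By mean, Mpo and Ctsg were lower in paternal nicotine. The part of neutrophils in the rise of Lcn2 was not tested.

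Trf (ENSMUSG00000032554, chromosome 9, 103204001 to 103230444, minus strand) encodes transferrin, which hepatocytes secrete. Trf was at 1686, 1563 and 1796 RPKM in the paternal nicotine livers, against 845, 1175 and 1045 RPKM in the paternal saline livers. All 3 paternal nicotine livers were above all 3 paternal saline livers. The means were 1682 ± 116 RPKM in paternal nicotine and 1021 ± 166 RPKM in paternal saline (SD, n = 3 each), a ratio of 1.65. The log2 fold change was 0.73 (SE 0.14, limma adjusted p = 0.0308). It did not pass in 5 of the 6 fits that left out 1 library (limma adjusted p 0.0675 to 0.0942) and passed without paternal saline replicate 2 (0.0311). Without paternal nicotine replicate 2 the log2 fold change was 0.78 (limma adjusted p = 0.0857). Trf shares 2108 of its 3320 exonic bases with Gm20425, a gene annotated on the same strand that was at 0 in all 6 libraries.

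Cp (ENSMUSG00000003617, chromosome 3, 19957054 to 20009145, plus strand) encodes ceruloplasmin, the copper protein of plasma that oxidises iron for loading onto transferrin. Cp was at 44.0, 36.3 and 35.4 RPKM in the paternal nicotine livers, against 17.9, 15.6 and 17.0 RPKM in the paternal saline livers. The groups did not overlap, and paternal nicotine replicate 1 was the highest. The means were 38.6 ± 4.75 RPKM in paternal nicotine and 16.9 ± 1.14 RPKM in paternal saline (SD, n = 3 each), a ratio of 2.29. The log2 fold change was 1.14 (SE 0.11, limma adjusted p = 0.00648), and it passed under every alternative run.

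Tfrc (ENSMUSG00000022797, chromosome 16, 32608920 to 32632794, plus strand) encodes transferrin receptor 1, through which cells take up iron-loaded transferrin. It had the lowest level of the 10 genes in either group by mean RPKM, at 0.934, 1.02 and 0.788 RPKM in paternal nicotine, against 1.09, 1.16 and 1.31 RPKM in paternal saline. The groups did not overlap, but the difference did not pass (log2 fold change -0.19, SE 0.09, limma adjusted p = 0.261). The ratio of means was 0.771, and at this level the pseudocount of 1 RPKM makes the log2 fold change smaller. It was -0.35 with a pseudocount of 0.1 RPKM and -0.38 with limma voom on the recovered reads, and neither passed (limma adjusted p = 0.291 and 0.170). The 4 hairpins that the search found in Tfrc are the sequences above. Its mean over all libraries, 1.05 RPKM, was just above the filter on low values, and 692 to 1051 reads per library lay behind it. Haemoglobin and other erythroid genes, 9 found of 10 listed, summed to 1004, 415 and 1097 RPKM in paternal nicotine, against 994, 454 and 1272 RPKM in paternal saline.

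Tfr2 (ENSMUSG00000029716, chromosome 5, 137569840 to 137587481, plus strand) encodes transferrin receptor 2, by which hepatocytes sense iron-loaded transferrin. Tfr2 was at 20.7, 13.4 and 14.1 RPKM in paternal nicotine, against 12.4, 18.5 and 14.5 RPKM in paternal saline. The groups overlapped, and the difference did not pass (log2 fold change 0.07, SE 0.21, limma adjusted p = 0.858). Per base covered by any transcript, the level of Tfr2 was 46.3, 27.5 and 37.4 times that of Tfrc in the paternal nicotine livers, against 23.8, 33.4 and 23.2 times in the paternal saline livers, and the groups overlapped.

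Slc40a1 (ENSMUSG00000025993, chromosome 1, 45908068 to 45926523, minus strand), the ferroportin gene, was at 8.38, 9.82 and 12.7 RPKM in paternal nicotine, against 11.9, 11.1 and 13.8 RPKM in paternal saline. The groups overlapped, and the difference did not pass (log2 fold change -0.24, SE 0.16, limma adjusted p = 0.399). The log2 fold change was -0.12 without paternal nicotine replicate 1 and -0.39 without paternal nicotine replicate 3, and it passed in neither fit (limma adjusted p = 0.694 and 0.145). Within each group the liver highest in Slc40a1 was replicate 3, which was also the highest of its group in the summed macrophage markers, and macrophages are known to express the gene. The part of macrophage content in these levels was not tested. Per base covered by any transcript, the level of Hamp was 266, 363 and 149 times that of Slc40a1 in the paternal nicotine livers, against 71.5, 65.0 and 88.0 times in the paternal saline livers. The groups did not overlap in this ratio.

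Neither ferritin gene passed the test. Fth1 (ENSMUSG00000024661, chromosome 19, 9980598 to 9985098, plus strand), the heavy subunit, was at 2078, 2193 and 2517 RPKM in paternal nicotine, against 2011, 2328 and 2118 RPKM in paternal saline. The groups overlapped (log2 fold change 0.07, SE 0.11, limma adjusted p = 0.723), and the fold change was -0.19 with quantile normalization and -0.00923 without paternal nicotine replicate 3. Ftl1 (ENSMUSG00000050708, chromosome 7, 45457944 to 45459884, minus strand), the light subunit, was at 784, 858 and 1071 RPKM in paternal nicotine, against 879.8, 979.8 and 1092 RPKM in paternal saline. These groups overlapped too, and Ftl1 did not pass (log2 fold change -0.13, SE 0.15, limma adjusted p = 0.625). The log2 fold change of Ftl1 was -0.03 without paternal nicotine replicate 1, -0.05 without paternal saline replicate 3, -0.21 without paternal saline replicate 1 and -0.26 without paternal nicotine replicate 3, and it passed in none of these fits (limma adjusted p 0.273 to 0.926).

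Both ferritin genes have processed copies in the genome that could take some of their reads. With its annotated copies added, Fth1 stood at 2263 ± 228 RPKM in paternal nicotine and 2152 ± 162 RPKM in paternal saline, and Ftl1 at 1044 ± 167 RPKM in paternal nicotine and 1131 ± 112 RPKM in paternal saline (SD, n = 3 each). Neither sum passed (limma adjusted p = 0.723 and 0.631). Ftl1 shares 109 exonic bases with the miRNA gene Gm22133, which was listed at 7321 to 9393 RPKM in paternal nicotine and at 7815 to 9442 RPKM in paternal saline. The ratio of Fth1 to Ftl1 RPKM, whose size depends on the lengths used, was 2.65, 2.56 and 2.35 in the paternal nicotine livers, against 2.29, 2.38 and 1.94 in the paternal saline livers, so the groups overlapped. Because ferritin is known to be set by iron mainly through translation, transcript levels do not measure the protein.

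**Figure D3:**
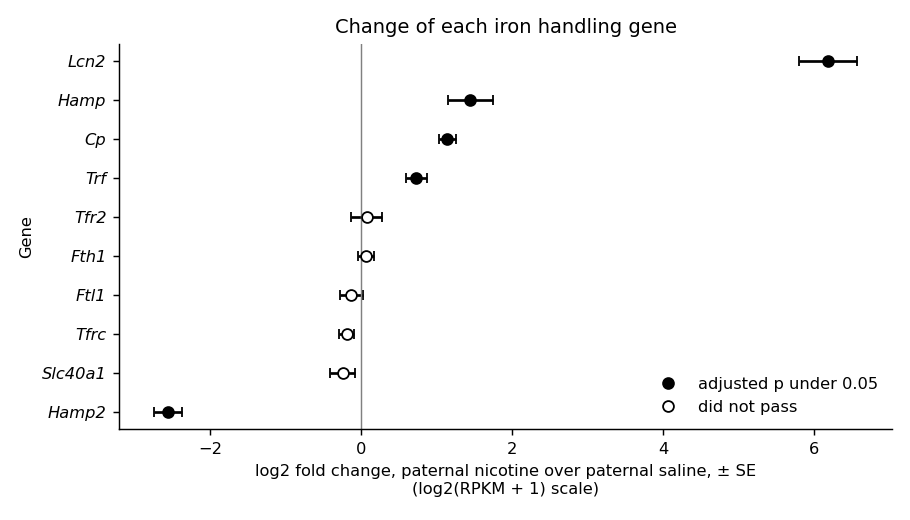
Log2 fold change of each iron handling gene, paternal nicotine over paternal saline, on the log2(RPKM + 1) scale with its standard error from limma, 3 livers per group. Filled points passed an adjusted p of 0.05: Lcn2, Hamp, Cp and Trf to the right of 0 and Hamp2 to the left, while the 5 open points lie between -0.24 and 0.07.

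Levels of different genes were compared per base covered by any transcript, without Fth1, whose length behind RPKM was not that of its annotated transcripts. By mean level, the order in paternal nicotine was Trf, Hamp, Ftl1, Lcn2, Cp, Tfr2, Hamp2, Slc40a1 and Tfrc. Of the neighbours in that order, Trf and Hamp, Hamp and Ftl1, and Hamp2 and Slc40a1 overlapped between livers, and the other pairs did not. In paternal saline the order was Ftl1, Trf, Hamp, Hamp2, Tfr2, Cp, Slc40a1, Lcn2 and Tfrc. There the livers overlapped between Ftl1 and Trf, Tfr2 and Cp, and Lcn2 and Tfrc. Lcn2 stood between Ftl1 and Cp in paternal nicotine and between Slc40a1 and Tfrc in paternal saline.

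In the BMP and SMAD arm of hepcidin regulation, 20 of 25 listed genes could be tested. Of these 1 rose, 0 fell and 19 did not pass, where 3.89% of all tested genes rose and 5.39% fell. The median log2 fold change was 0.05, with a positive value in 11, against a median of -0.02 for all tested genes. The list mixes activators, inhibitors and targets of the pathway, so its median does not measure the activity of the arm. The 1 that rose was Fgl1, which encodes a secreted liver protein known to bind and block BMP ligands. Its level was 5.67 ± 0.766 RPKM in paternal nicotine and 1.03 ± 0.519 RPKM in paternal saline (SD, n = 3 each, limma adjusted p = 0.00795). Bmp6, the ligand by which the liver endothelium signals iron, was at 4.17 ± 1.52 RPKM in paternal nicotine and 5.79 ± 0.415 RPKM in paternal saline (limma adjusted p = 0.274). Hfe2, which encodes the BMP co-receptor hemojuvelin, was at 20.3, 16.2 and 21.1 RPKM in paternal nicotine, against 38.0, 30.9 and 23.7 RPKM in paternal saline (limma adjusted p = 0.0993). Tmprss6, a protease that removes hemojuvelin, was at 42.6 ± 6.67 RPKM in paternal nicotine and 66.8 ± 19.2 RPKM in paternal saline (limma adjusted p = 0.192). The SMAD target genes Id1 and Smad7 were at 8.04 ± 3.46 and 5.09 ± 0.796 RPKM in paternal nicotine and at 4.92 ± 0.956 and 3.81 ± 0.791 RPKM in paternal saline, and neither passed (limma adjusted p = 0.300 and 0.242). On the log2 scale Id1 and Smad7 differed by 0.55 and 0.35, and the groups did not overlap for Smad7. The SMAD targets Id2, Smad6 and Atoh8, named after their values were seen, had log2 fold changes of 0.34, 0.29 and 0.79. None of them passed (limma adjusted p = 0.177, 0.293 and 0.0858), and the groups did not overlap for Atoh8. Hfe was at 9.08 ± 1.29 RPKM in paternal nicotine and 9.33 ± 0.698 RPKM in paternal saline.

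In the IL-6, activin and STAT3 arm, 14 of 18 listed genes could be tested. Of these 2 rose, 0 fell and 12 did not pass, beside 3.89% higher and 5.39% lower among all tested genes. The median log2 fold change was 0.69, with a positive value in 13. Socs3, the feedback inhibitor that STAT3 induces, rose to 26.7, 32.3 and 24.6 RPKM in the paternal nicotine livers, against 5.09, 3.48 and 1.24 RPKM in the paternal saline livers (log2 fold change 2.86, SE 0.37, limma adjusted p = 0.0121). Il1r1, the receptor of interleukin 1, was at 19.6, 16.9 and 5.80 RPKM in paternal nicotine, against 1.45, 1.67 and 1.38 RPKM in paternal saline, for which the log2 fold change was 2.45 (SE 0.42, limma adjusted p = 0.0242). Stat3 was at 12.1 ± 1.43 RPKM in paternal nicotine and 5.97 ± 2.80 RPKM in paternal saline, and Inhbb, which encodes an activin subunit, at 10.6 ± 0.902 RPKM in paternal nicotine and 4.996 ± 3.34 RPKM in paternal saline. The groups did not overlap for either gene, and neither passed (limma adjusted p = 0.0882 and 0.128). Il6ra was at 6.48 ± 0.652 RPKM in paternal nicotine and 4.96 ± 1.77 RPKM in paternal saline (limma adjusted p = 0.383). Il6 itself, named after its values were seen, was below the tested range, at 0.0112 to 0.0284 RPKM in paternal nicotine and at 0 in paternal saline.

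For iron uptake, reduction and intracellular traffic, 12 of 22 listed genes could be tested: 3 rose, 2 fell and 7 did not pass, with a median log2 fold change of 0.05. Over all tested genes 3.89% rose and 5.39% fell. Steap4, a metalloreductase of iron and copper, was at 307, 263 and 159 RPKM in paternal nicotine, against 17.9, 40.6 and 23.3 RPKM in paternal saline, for which the log2 fold change was 3.14 (SE 0.37, limma adjusted p = 0.0091). Slc11a2, the ferrous iron transporter DMT1, was at 10.1 ± 0.283 RPKM in paternal nicotine and 5.04 ± 0.434 RPKM in paternal saline (limma adjusted p = 0.00648). Scara5, a ferritin receptor, was at 8.09 ± 1.31 RPKM in paternal nicotine and 1.35 ± 1.30 RPKM in paternal saline (limma adjusted p = 0.0335). The endosomal ferrireductase gene Steap3 fell to 1.56 ± 0.367 RPKM in paternal nicotine, against 3.16 ± 0.303 RPKM in paternal saline (limma adjusted p = 0.0264). Bdh2, which encodes a dehydrogenase linked to a mammalian siderophore, fell to 1.11 ± 0.102 RPKM in paternal nicotine, against 2.48 ± 0.293 RPKM in paternal saline (limma adjusted p = 0.0126). Slc39a14, the hepatic importer of iron not bound to transferrin, scattered widely, at 16.1, 14.3 and 1.44 RPKM in paternal nicotine, against 0.615, 7.68 and 4.57 RPKM in paternal saline. Slc22a17, a receptor for lipocalin 2, was below the tested range at 0.0355 to 0.0694 RPKM in paternal nicotine and 0.0505 to 0.0521 RPKM in paternal saline.

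For iron sensing by IRP and hypoxia, 9 of 12 listed genes could be tested, and 0 passed in limma, against 9.28% of all tested genes, with 3 at an unadjusted p under 0.05. They were Aco1, Egln1 and Egln3, the last 2 named after their values were seen. Aco1, which encodes iron regulatory protein 1, was at 35.3 ± 2.17 RPKM in paternal nicotine and 43.4 ± 1.61 RPKM in paternal saline, with groups that did not overlap (limma adjusted p = 0.0784). Ireb2, for iron regulatory protein 2, was at 5.54 ± 1.02 RPKM in paternal nicotine and 5.76 ± 0.371 RPKM in paternal saline. Ncoa4, the receptor that delivers ferritin for breakdown, was below the tested range, at 0.749 to 0.813 RPKM in paternal nicotine and 0.611 to 0.724 RPKM in paternal saline.

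For iron-sulfur cluster assembly and cluster proteins, 20 of 22 listed genes could be tested. Of these 6 fell, against 5.39% of all tested genes, 0 rose and 14 did not pass, and the median log2 fold change was -0.21. Cisd1, an iron-sulfur protein of the outer mitochondrial membrane, was at 71.8 ± 6.50 RPKM in paternal nicotine and 143 ± 11.4 RPKM in paternal saline (log2 fold change -0.99, SE 0.10, limma adjusted p = 0.00666). The ferredoxin gene Fdx1 fell to 17.0 ± 1.71 RPKM in paternal nicotine, against 29.8 ± 2.27 RPKM in paternal saline. The other 4 were Glrx5, Bola3, Lyrm4 and Ciapin1. Most of the list encodes mitochondrial proteins, and the summed mitochondrial transcripts given above (1 of 13 passed) were lower in the same libraries. The part of that difference in these falls was not tested.

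Of the acute phase genes beside Lcn2, 25 of 27 listed could be tested: 14 rose, 2 fell and 9 did not pass, with a median log2 fold change of 1.76. The shares among all tested genes were 3.89% higher and 5.39% lower. Hp, which encodes the haemoglobin scavenger haptoglobin, was at 6899 ± 394 RPKM in paternal nicotine and 1474 ± 197 RPKM in paternal saline (limma adjusted p = 0.00156). Of those that rose, Hp, Orm2, C3, Serpina3n and Itih4 had the lowest p. Hpx, the haem scavenger hemopexin, was at 1802, 9966 and 10485 RPKM in paternal nicotine, against 2464, 2828 and 2080 RPKM in paternal saline, so that paternal nicotine replicate 1 lay below all 3 paternal saline livers. The 2 that fell were Orm1 and Alb. Beside genes known to rise in the acute phase, the list holds Alb, Ttr and Ahsg, which are known to fall. Ttr and Ahsg, named after their values were seen, had log2 fold changes of -2.10 and -0.30. Neither passed (limma adjusted p = 0.0563 and 0.124). Alb, which encodes albumin and was named after its values were seen, was at 11791 ± 694 RPKM in paternal nicotine and 23798 ± 4438 RPKM in paternal saline.

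**Figure D4:**
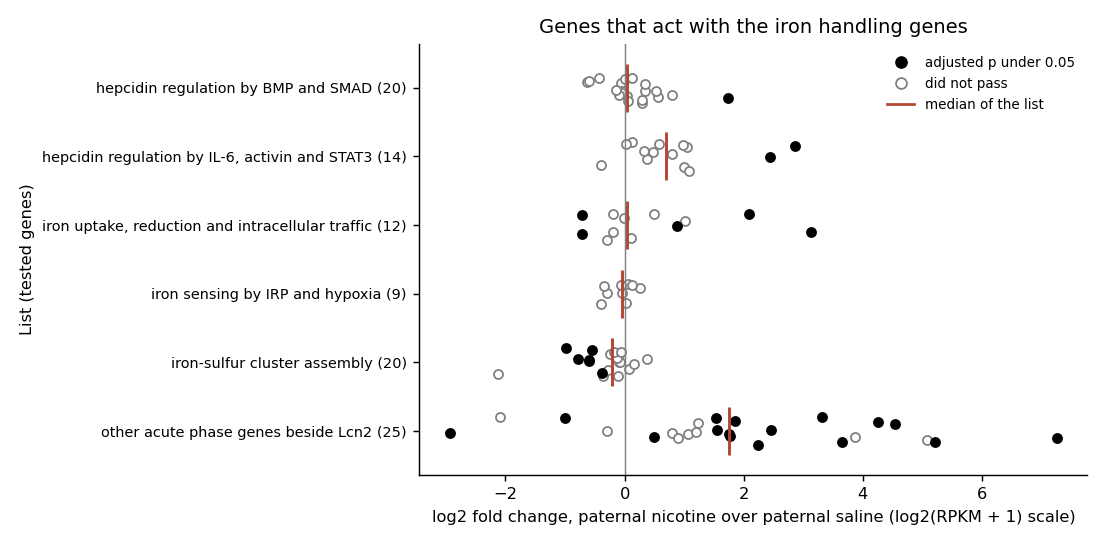
Each point is a tested gene of 1 of 6 lists, placed by its log2 fold change, paternal nicotine over paternal saline, on the log2(RPKM + 1) scale; filled points passed an adjusted p of 0.05, vertical lines mark list medians, and the vertical scatter within a list has no meaning. The acute phase median is 1.76, that of the IL-6, activin and STAT3 arm 0.69 and that of the BMP and SMAD arm 0.05. Lists mix genes of opposite roles, so a median does not measure the activity of a pathway.

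The genes with the most similar profiles over the 6 libraries were found by the root mean square difference of log2(RPKM + 1), each gene centred on its own mean. For Lcn2 they were Orm2, Cxcl1 and Saa2, at differences of 0.61, 0.78 and 0.78. For Hamp2 they were Ces1d, Slco1a1 and Inmt, at 0.26, 0.27 and 0.29, and for Hamp they were Hsp25-ps1, Atp11a and Mustn1, at 0.30, 0.31 and 0.31. The profiles have 6 points in 2 groups, so this likeness is mainly that of the size of the difference between groups.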

How the data were processed

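For each of the 6 libraries the authors deposited RPKM per Ensembl gene. The submitters' processing notes name CASAVA, TopHat and mm8, with no versions, and RNA was extracted with Trizol per the labels' protocols. Which tool counted reads, on which annotation and strand, and what was done with multiply matching reads are points not given in the sources used here. Deposited values under 1e-06 RPKM, placeholders for genes without a read, were set to 0. These placeholders, 98.8% of which fitted the summed exon lengths of all transcripts, gave each library's total and, with it, whole reads within 0.01 for all 25531 genes with a read; for 1030 of these, Fth1 among them, the shortest length that gave whole reads was taken, so their reads are known only up to a whole-number multiple. The deposited lengths were not used, since they were the row's own in only 96 rows.

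Symbols and coordinates came from GENCODE M21 (GRCm38), which held 99.77% of the identifiers. Where a symbol recurred, its highest row by mean was taken. Genes averaging 1 RPKM or more were tested in R 4.3.3 by limma 3.58.1 (moderated by eBayes, trend and robust both on) on log2(RPKM + 1), a scale that understates the change of low genes. The fit was tested on simulated data. The members and lists were chosen with earlier results of these data known, so no p is adjusted over a list alone. Genes named from the lists were those that passed, up to 6 per list by p, and a fixed set of regulators. Sums of copies, lists fixed by role and alternatives were computed in the same fit. Levels per base covered by any transcript were added after the data were seen. Exact permutation tests were two-sided. The pairing of replicate numbers was checked by the correlation of deviations from group means. Sequences came from RefSeq and GENCODE tables, and alignments were made with Biopython 1.88. Figures were drawn with matplotlib 3.10.9. The result of 1 short list is not reported here.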

Additional observations from a re-analysis of the deposited data

How the results depend on the processing

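Lcn2, Hamp2 and Cp kept their direction and passed in all 14 alternatives, with fold changes of 5.93 to 6.94, -2.74 to -2.41 and 1.05 to 1.20. Hamp and Trf kept their direction in all 14 and passed in 6 each. The number of iron handling genes that passed was 5, and it was 3 without a filter on low values, 3 with quantile normalization and 3 with the replicate block. It was 3 to 4 when 1 library was left out. Over all genes, 814 passed, against 367 without a filter, 383 with the replicate block, 1411 at an adjusted p of 0.1, and 185 to 658 when 1 library was left out. Of the listed pathway genes 30 passed, where 9.28% of all tested genes passed. Among these 30 were acute phase genes, of which 14 rose and 2 fell. When 1 library was left out, 12 to 32 listed genes passed. Without paternal nicotine replicates 1 or 2, 273 and 185 genes passed, 19 and 12 of them listed. Without paternal saline replicates 1 or 3 it was 257 and 365, with 15 and 21 listed. The cause of these differences was not tested. The fits that leave 1 library out have fewer samples, and more genes were tested without a filter.

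The summed hepcidin genes did not pass without a filter (log2 fold change 1.38, limma adjusted p = 0.115), with quantile normalization (1.28, 0.0894), with the replicate block (1.38, 0.123), with limma voom on the recovered reads (1.25, 0.055), or when 1 library was left out (1.11 to 1.58). Fth1 reversed with quantile normalization, at -0.19 alone and with its copies, and without paternal nicotine replicate 3, at -0.00923 alone and -0.00928 with its copies. Across the fits that leave out 1 library both ranged up to 0.13. Tfr2 was at -0.11 without paternal nicotine replicate 1 and at -0.05 without paternal saline replicate 1, and at most 0.22 when another was left out. Same-numbered libraries correlated at 0.01, 0.06 and 0.05, and differently numbered ones at -0.11 to 0.05. These correlations cannot exclude pairs, since the 3 deviations from a group mean add up to 0. The replicate numbers are not taken as pairs because the labels do not say that they mark any. In the replicate block Hamp and Trf were at limma adjusted p = 0.118 and 0.0734.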
